A study of Homo sapiens with 4 samples.

Results

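The 9 genes described here encode enzymes that make, reactivate or remove androgens inside prostate cells. They are the aldo-keto reductases AKR1C1, AKR1C2 and AKR1C3, the steroid reductase SRD5A1, the hydroxysteroid dehydrogenases HSD17B4 and HSD17B6, and the glucuronosyltransferases UGT2B10, UGT2B15 and UGT2B17. Members were selected by gene symbol from the platform annotation, out of 18417 genes that had a probe set carrying their symbol alone. Of the 9, 8 had such a probe set, and UGT2B15 was read only by probe sets that also carry UGT2B17 or further paralogs.

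Expression was measured on 4 Affymetrix whole-transcript arrays, 1 per group, so that every difference below is between single arrays and has no replicate check, no error and no test. The groups were LTAD cells transfected with siPSF, LTAD cells transfected with siControl, LTAD cells without transfection, and LNCaP cells. LNCaP is a human prostate cancer line that responds to androgen, LTAD is 1 subline obtained from it by long androgen deprivation, and siPSF targets SFPQ, which encodes the splicing and transcription factor PSF. LTAD cells were maintained without phenol red in RPMI with 10% serum stripped of steroids on charcoal, whereas LNCaP cells, grown with 10% unstripped serum, spent 24 h in phenol red-free RPMI with 2.5% stripped serum. All 4 groups were thus harvested from hormone-depleted medium, and effects of cell line, serum level and length of deprivation cannot be told apart. The siRNA sequences, dose and time after transfection are not given in the sources used here.

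Levels are log2 probe set values after quantile normalization of the 4 arrays, which gives each array the same distribution, since the medians of the deposited columns ran from 5.98 for siControl to 7.20 for untransfected LTAD. A gene was kept where its level reached 7.23, the median of all gene values, on at least 1 array, which left 10117 genes. A level under 7.23 was not shown to be above background, as no detection call was used. SFPQ itself read 9.87 with siPSF, 11.23 with siControl, 10.82 in untransfected LTAD and 10.83 in LNCaP, a difference of -1.37 between the siPSF and siControl arrays. The luminal epithelial markers KRT8, KRT18, HOXB13 and EPCAM read between 10.59 and 12.49 on the 4 arrays. KRT19, also a luminal marker, read 6.09 to 6.60 and was not kept. The leukocyte marker PTPRC read 3.40 to 3.62 and the endothelial marker PECAM1 4.39 to 4.78. Of 7 endothelial and immune markers measured, only CD68 was kept, at 7.57 to 8.70, above the filter value on every array.

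Androgen action depends on a balance of enzymes as well as on the receptor. AKR1C3 makes testosterone from androstenedione, and SRD5A1 is one of the reductases that supply the stronger ligand dihydrotestosterone. AKR1C2, and less efficiently AKR1C1, reduce dihydrotestosterone to weak metabolites, HSD17B6 can oxidise one of them back to dihydrotestosterone, and UGT2B15 and UGT2B17 attach glucuronic acid to androgens so that they can be exported. In prostate cancer treated by castration these steps are studied because they set how much ligand tumour cells hold.

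The AKR1C genes lie together on chromosome 10 and are close copies of each other, as their start regions show. The windows below run from 250 bases before to 50 bases after the start of transcription in RefSeq, build GRCh38.p14. They are shown because AKR1C2 and AKR1C3 differed in opposite directions between untransfected LTAD and LNCaP. Capitals in the lower 2 sequences mark bases without an identical partner in the AKR1C1 window in a global alignment.
AKR1C1, chr10:4963165-4963464, plus strand: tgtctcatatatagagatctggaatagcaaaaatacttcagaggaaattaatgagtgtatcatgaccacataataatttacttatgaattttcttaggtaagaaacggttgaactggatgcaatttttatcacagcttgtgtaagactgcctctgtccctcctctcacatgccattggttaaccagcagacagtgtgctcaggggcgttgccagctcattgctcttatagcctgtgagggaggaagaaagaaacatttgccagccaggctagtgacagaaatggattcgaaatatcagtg
AKR1C2, chr10:5003808-5004107, minus strand: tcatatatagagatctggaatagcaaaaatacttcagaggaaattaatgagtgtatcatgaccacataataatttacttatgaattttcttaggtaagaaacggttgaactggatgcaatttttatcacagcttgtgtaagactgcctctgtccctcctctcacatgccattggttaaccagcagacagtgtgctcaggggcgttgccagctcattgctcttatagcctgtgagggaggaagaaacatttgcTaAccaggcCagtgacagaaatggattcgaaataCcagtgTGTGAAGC
AKR1C3, chr10:5094164-5094463, plus strand: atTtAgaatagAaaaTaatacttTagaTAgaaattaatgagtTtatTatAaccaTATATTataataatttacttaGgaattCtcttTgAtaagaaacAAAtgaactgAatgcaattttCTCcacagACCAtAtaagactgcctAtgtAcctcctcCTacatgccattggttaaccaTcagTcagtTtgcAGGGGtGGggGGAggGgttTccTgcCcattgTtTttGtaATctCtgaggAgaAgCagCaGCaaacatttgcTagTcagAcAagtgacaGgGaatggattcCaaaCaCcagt
In the AKR1C2 window 288 of 292 aligned bases, 98.6%, were the same as in AKR1C1. RefSeq gives AKR1C3 2 start windows, and the one printed is that with the higher identity, 79.9% of 283 aligned bases, against 78.0% of 291 for chr10:5048531-5048830. Each of the AKR1C windows held 1 CCAAT, the letters of the CCAAT box, on the reverse strand, as did 34.6% of 35116 promoter windows on either strand. None of them held TGACNNNGC, the core of the antioxidant response element bound by NRF2, on either strand, nor TGTTCT, a half-site of the androgen response element. These letters occurred in 13.3% and 14.8% of all windows.

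AKR1C3 was the member with the widest range. Its level was 4.06 with siPSF, 3.56 with siControl, 8.95 in untransfected LTAD and 5.64 in LNCaP. Only untransfected LTAD reached the filter value, and AKR1C3 was kept through that array alone. Its log2 difference was 3.31 for untransfected LTAD minus LNCaP, the 27th highest of 10117 kept genes, and -5.39 for siControl minus untransfected LTAD, the 6th lowest. With siControl LTAD set against LNCaP the difference was -2.08, so the higher level of the androgen-deprived line was seen on 1 of the 3 LTAD arrays.

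AKR1C2 read 5.82 with siPSF, 5.54 with siControl, 7.47 in untransfected LTAD and 10.61 in LNCaP. LNCaP stood above every LTAD array, and both transfected arrays lay under the filter value. The difference was -3.14 for untransfected LTAD minus LNCaP, the 11th lowest of the kept genes, and -5.07 for siControl LTAD minus LNCaP, the 5th lowest there. Between siControl and untransfected LTAD it was -1.93.

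AKR1C1, which also reduces progesterone, was read by 2 probe sets that disagreed. The one annotated with the gene's RefSeq transcript, used here for its higher mean, gave 5.42 with siPSF, 5.26 with siControl, 7.93 in untransfected LTAD and 9.30 in LNCaP. Its order over the arrays was that of AKR1C2, with differences of -1.37 for untransfected LTAD minus LNCaP, -2.67 for siControl minus untransfected LTAD and -4.04 for siControl LTAD minus LNCaP. The second probe set stayed under the filter value throughout, with 6.03, 5.79, 6.51 and 5.89 on the arrays in the same order. There untransfected LTAD was above LNCaP by 0.62. Because AKR1C1 and AKR1C2 are so alike in sequence, how far each probe set reads its own gene alone was not tested, and the AKR1C1 values are uncertain.

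HSD17B6, the back-conversion enzyme, had the opposite order among the LTAD arrays. It read 7.12 with siPSF, 7.40 with siControl, 4.69 in untransfected LTAD and 6.60 in LNCaP. Only the siControl array reached the filter value, by a small margin, and untransfected LTAD was the lowest of the 4. The differences were -1.90 for untransfected LTAD minus LNCaP and 2.71 for siControl minus untransfected LTAD, the 18th highest of the kept genes. Against LNCaP, siControl LTAD differed by 0.81, but by -0.07 on the deposited values, so that this direction turned with the scaling.

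SRD5A1 and HSD17B4 varied little after quantile normalization. SRD5A1 read 8.52 with siPSF, 8.93 with siControl, 9.09 in untransfected LTAD and 9.15 in LNCaP. HSD17B4, a peroxisomal enzyme that oxidises sex steroids and shortens fatty acid chains, read 10.02, 10.14, 10.42 and 10.36 on the same arrays. Both genes were above the filter value on every array. On the deposited values siControl minus untransfected LTAD was past 2-fold lower for both, at -1.06 for SRD5A1 and -1.11 for HSD17B4. After quantile normalization SRD5A1 ranged over 0.63 and HSD17B4 over 0.41, and with single arrays no spread is known against which the gaps between neighbours in that order could be judged.

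**Figure D1:**
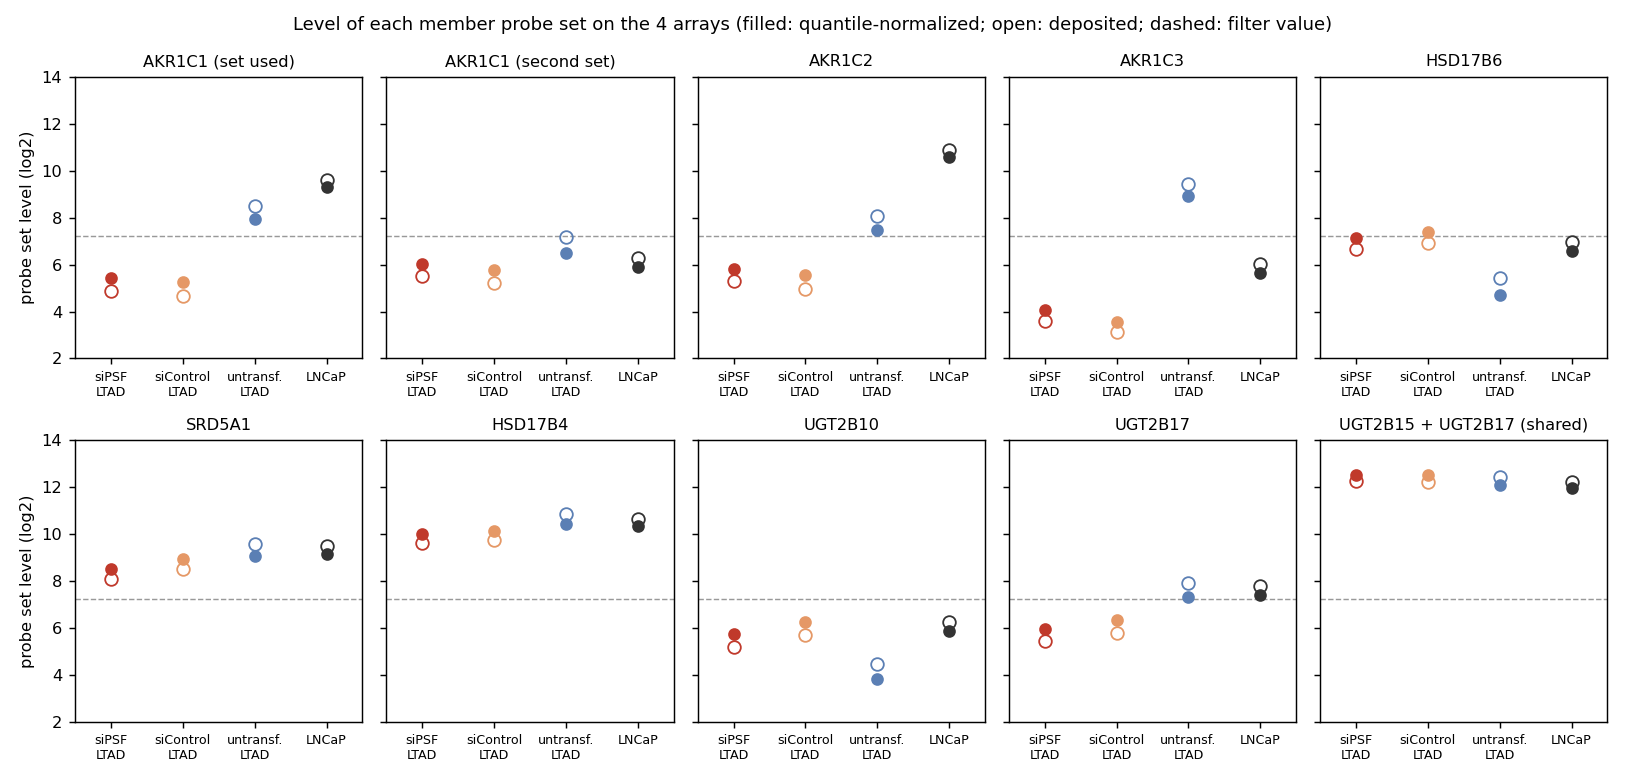
Each panel shows 1 probe set, with the 4 arrays on the x axis and the log2 level on the y axis; filled points are quantile-normalized, open points are the deposited values, and the dashed line is the filter value of 7.23. AKR1C3 stands out in untransfected LTAD at 8.95, AKR1C2 in LNCaP at 10.61, and the filled points of SRD5A1 and HSD17B4 stay nearly level.

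The glucuronosyltransferases of the UGT2B family sit in a cluster on chromosome 4, and many probe sets there carry several symbols. The windows of UGT2B10, of UGT2B15 and of UGT2B11, a paralog that shares 2 of those probe sets with UGT2B10, show how near these genes are to each other. Capitals mark bases without an identical partner in the UGT2B10 window.
UGT2B10, chr4:68815744-68816043, plus strand: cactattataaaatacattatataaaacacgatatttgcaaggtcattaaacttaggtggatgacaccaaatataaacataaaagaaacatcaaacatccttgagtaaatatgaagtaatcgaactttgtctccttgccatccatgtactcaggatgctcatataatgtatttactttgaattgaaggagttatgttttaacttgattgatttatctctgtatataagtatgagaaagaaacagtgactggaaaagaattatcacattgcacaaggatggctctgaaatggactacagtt
UGT2B11, chr4:69214699-69214998, minus strand: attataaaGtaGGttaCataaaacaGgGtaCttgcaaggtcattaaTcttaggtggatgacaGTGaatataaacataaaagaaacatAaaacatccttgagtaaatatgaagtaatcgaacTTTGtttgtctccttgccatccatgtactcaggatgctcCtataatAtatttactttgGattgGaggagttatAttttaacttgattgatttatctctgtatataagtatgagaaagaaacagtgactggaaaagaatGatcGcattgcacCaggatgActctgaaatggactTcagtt
UGT2B15, chr4:68670603-68670902, minus strand: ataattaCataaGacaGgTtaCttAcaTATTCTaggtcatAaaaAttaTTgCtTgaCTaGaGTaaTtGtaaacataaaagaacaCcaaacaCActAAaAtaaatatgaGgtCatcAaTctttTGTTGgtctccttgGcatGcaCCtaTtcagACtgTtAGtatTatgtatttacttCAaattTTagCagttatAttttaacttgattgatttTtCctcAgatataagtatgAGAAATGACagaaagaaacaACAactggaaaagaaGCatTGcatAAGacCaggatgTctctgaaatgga
Identity with UGT2B10 was 92.6% of 296 aligned bases for UGT2B11 and 79.1% of 277 for UGT2B15. TGACNNNGC occurred once on the reverse strand in the windows of UGT2B10 and of UGT2B11. TGTTCT occurred once on the reverse strand in that of UGT2B15. UGT2B17 and HSD17B6 have no window printed here.

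UGT2B10, best known for conjugating amines, read 5.73 with siPSF, 6.27 with siControl, 3.81 in untransfected LTAD and 5.85 in LNCaP. All 4 levels lay under the filter value, so the gene was not kept. Untransfected LTAD was lowest, with differences of -2.04 for untransfected LTAD minus LNCaP and 2.46 for siControl minus untransfected LTAD, both between readings not shown to be above background. UGT2B28, a paralog outside the member set, had nearly the same 4 readings, 5.58, 6.05, 3.80 and 5.90. A probe set carrying 7 symbols, UGT2B10, UGT2B17 and UGT2B28 among them, ran the same way at levels above the filter value on 3 arrays, with 9.91 for siPSF, 10.03 for siControl, 6.57 for untransfected LTAD and 10.05 for LNCaP. Its difference was -3.49 for untransfected LTAD minus LNCaP and 3.46 for siControl minus untransfected LTAD, and it cannot be given to any 1 of its genes.

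UGT2B17 on its own probe set read 5.96 with siPSF, 6.36 with siControl, 7.32 in untransfected LTAD and 7.43 in LNCaP. Both transfected arrays were below the filter value and both untransfected arrays just above it. The difference was -0.11 for untransfected LTAD minus LNCaP, -0.96 for siControl minus untransfected LTAD and -1.07 for siControl LTAD minus LNCaP.

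The 2 probe sets labelled UGT2B17 and UGT2B15 together held identical values on every array and were counted as 1 reading. That reading was 12.51 with siPSF, 12.53 with siControl, 12.10 in untransfected LTAD and 11.99 in LNCaP. For siControl minus untransfected LTAD it differed by 0.43, but as deposited by -0.21, so that its direction turned with the scaling. The probe set of UGT2B17 alone differed by -0.96 there and by -2.12 as deposited. A further probe set with 5 symbols, UGT2B10, UGT2B15 and UGT2B17 among them, read 12.88, 12.81, 12.74 and 12.25. Both shared readings stayed within 0.62 over the 4 arrays, and the part of UGT2B15 in them cannot be separated.

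**Figure D2:**
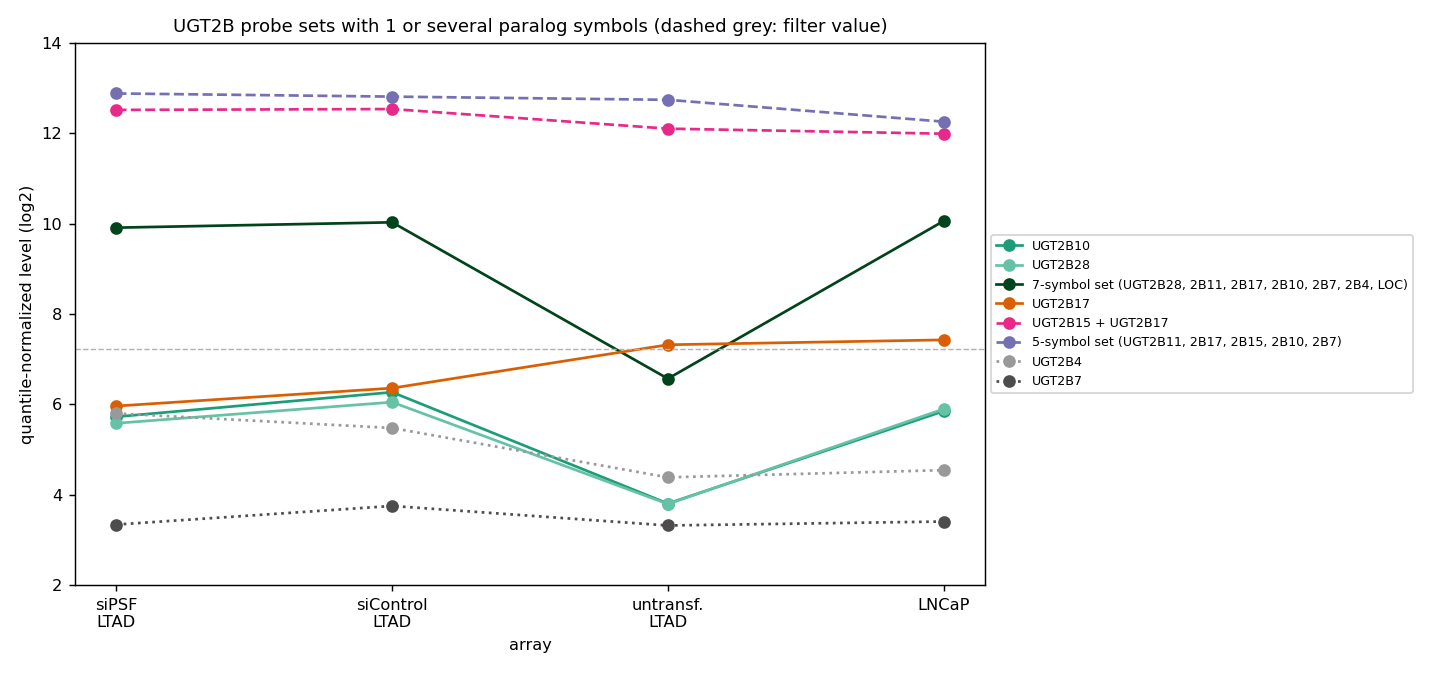
Quantile-normalized log2 levels of the UGT2B probe sets (y axis) on the 4 arrays (x axis), with lines joining the values of 1 probe set and the dashed grey line at the filter value. UGT2B10, UGT2B28 and the 7-symbol set dip in untransfected LTAD, to 3.81, 3.80 and 6.57, whereas the UGT2B15 and UGT2B17 reading stays between 11.99 and 12.53.

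The comparison of siPSF with siControl asks what a lower SFPQ level does in the androgen-deprived line. None of the 7 kept members differed by 2-fold or more, where 0.811% of all kept genes did, 0.089% being higher and 0.722% lower. AKR1C3 had the highest difference at 0.50, between 2 readings far under the filter value, followed by AKR1C2 at 0.28 and AKR1C1 at 0.16. SRD5A1 was lowest at -0.41, then UGT2B17 at -0.40, HSD17B6 at -0.28 and HSD17B4 at -0.12. AKR1C1, AKR1C2 and UGT2B17 also read under the filter value on both arrays, and HSD17B6 did so with siPSF. Such readings were not shown to be above background, which limits what the lack of a 2-fold difference can show. UGT2B10, not kept, differed by -0.54. The 7 kept members had a median of -0.12, beside -0.02 for all kept genes. When untransfected LTAD took the place of siControl, 5 of the 7 were at least 2-fold apart, at a background of 10.6%. Of these, 4 were lower, against 5.2% of the kept genes, and 1 was higher, against 5.4%. They were AKR1C1 at -2.51, AKR1C2 at -1.65, AKR1C3 at -4.89, UGT2B17 at -1.35 and HSD17B6 at 2.42. AKR1C3 was kept only through untransfected LTAD, where it is high. HSD17B6 was kept only through siControl and read under the filter value on both arrays of this comparison. Nothing is read from the count of 5 against the background, beyond that it differed from the count against siControl.

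Untransfected LTAD against LNCaP asks what sets the subline apart from the parental cells. Of the 7 kept members, 4 were at least 2-fold apart, against a background of 5.63% of the kept genes. AKR1C3 was higher, where 2.2% of the kept genes were, and AKR1C1, AKR1C2 and HSD17B6 were lower, where 3.43% were. Each of these genes read under the filter value on at least 1 array. HSD17B6 did so on both arrays of this comparison and was kept through the siControl array. The second AKR1C1 probe set, under the filter value, differed by 0.62 in the other direction. AKR1C3 was kept only through untransfected LTAD, where it is high, and nothing is read from the count of members. The member median was -0.11, beside 0.00 for all kept genes. With siControl LTAD set against LNCaP instead, AKR1C1, AKR1C2, AKR1C3 and UGT2B17 were at least 2-fold lower, at a background of 2.95%, and no member was 2-fold higher, as 2.69% of the kept genes were. The LNCaP array is common to both comparisons. AKR1C3 read under the filter value on both siControl LTAD and LNCaP, and was kept through an array outside that comparison. The reading shared by UGT2B15 and UGT2B17 differed there by 0.55, opposite to the probe set of UGT2B17 alone. Nothing is read from that count of members.

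SiControl against untransfected LTAD shows how far 2 arrays of the same line lay apart without any siRNA to PSF. Of the 7 kept members, 4 were at least 2-fold apart, at a background of 10.7%. AKR1C1, AKR1C2 and AKR1C3 were lower with siControl, against 4.36% of the kept genes, and HSD17B6 was higher, against 6.34%. AKR1C3 was kept only through untransfected LTAD and HSD17B6 only through siControl, each the array where it was highest, and nothing is read from the count of members. The member median was -0.96, beside 0.06 for all kept genes. Without quantile normalization, as deposited, 11049 genes were kept, with a median of -0.92 in this comparison. Of these, 4791 were at least 2-fold lower and 65 higher. Among the kept members 6 were lower and none higher, and nothing is read from that count. HSD17B6 was not kept there, because the filter was then taken on the deposited values too, but as deposited it was still higher with siControl, at 6.90 against 5.45 in untransfected LTAD. Transfection, culture and any difference between array runs cannot be told apart here.

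**Figure D3:**
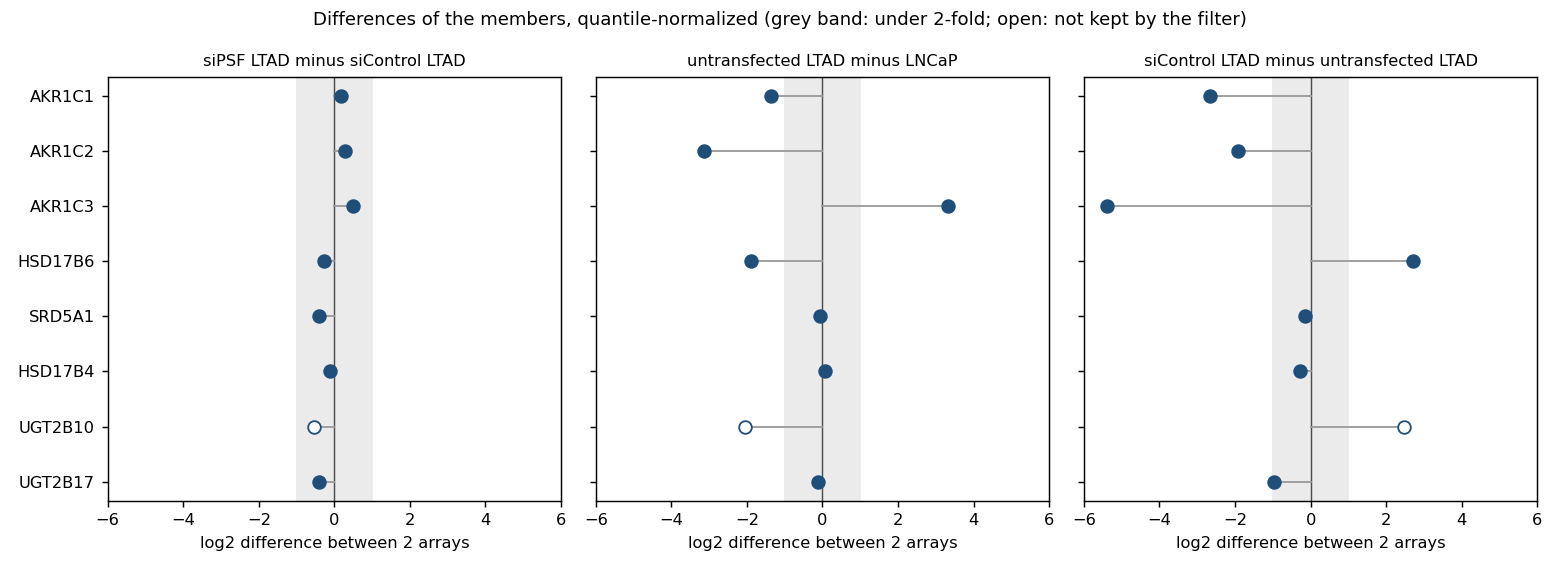
Log2 difference (x axis) of each member (rows) in the 3 comparisons; filled points are kept members, the open point is UGT2B10, and the grey band marks differences under 2-fold. All members lie inside the band for siPSF minus siControl, whereas AKR1C3 lies at 3.31 for untransfected LTAD minus LNCaP and at -5.39 for siControl minus untransfected LTAD.

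LUM, a stromal marker that encodes the matrix proteoglycan lumican, was high on the same array as AKR1C3. LUM read 2.97 with siPSF, 3.21 with siControl, 8.80 in untransfected LTAD and 3.78 in LNCaP. Of the 7 stromal markers measured, 4 were kept. Among these LUM alone was at least 2-fold higher in untransfected LTAD than in LNCaP, where 2.2% of all kept genes were. LUM was kept only through untransfected LTAD, where it is high, and nothing is read from this count. The intermediate filament gene VIM was at least 2-fold higher with siControl than in untransfected LTAD, by 1.88, but by 0.87 on the deposited values. The list medians were 0.21 for siPSF minus siControl, 0.05 for untransfected LTAD minus LNCaP and 0.38 for siControl minus untransfected LTAD. The summed linear level of the list was 1267 with siPSF, 1106 with siControl, 1100 in untransfected LTAD and 677 in LNCaP. Different genes stood highest in these sums. LUM did so in untransfected LTAD, and VIM on the other arrays, at 9.31 with siPSF, 9.03 with siControl and 7.84 in LNCaP. A part of LUM or of the other stromal markers in the AKR1C3 result was not tested. In siPSF minus siControl, untransfected LTAD minus LNCaP and siControl minus untransfected LTAD, luminal epithelial markers held no gene at 2-fold among 4 kept of 5 measured, nor did endothelial and immune markers with 1 kept of 7, or hepatocyte markers with 1 kept of 5. KLK3, the androgen-induced gene of prostate-specific antigen, read 7.11 with siPSF, 7.47 with siControl, 11.06 in untransfected LTAD and 12.89 in LNCaP, highest in LNCaP and lowest on the transfected arrays, as AKR1C2 was. In the 3 comparisons above it was the only one of 3 kept genes of the androgen receptor target list to reach 2-fold, at -1.83 for untransfected LTAD minus LNCaP and -3.59 for siControl minus untransfected LTAD.

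The genes around the members in androgen metabolism mostly stayed under 2-fold, as most kept genes did. The share of all kept genes at least 2-fold apart was 0.811% for siPSF minus siControl and 5.63% for untransfected LTAD minus LNCaP. For siControl minus untransfected LTAD it was 10.7%. With few kept genes per list, nothing is read from the counts of these lists. Synthesis of androgens from cholesterol had 5 of 13 measured genes kept, and none reached 2-fold in the 3 comparisons. The list medians were -0.25 for siPSF minus siControl, 0.17 for untransfected LTAD minus LNCaP and -0.08 for siControl minus untransfected LTAD. CYP17A1, HSD3B1 and HSD3B2, which encode early steps of the pathway, were among the 8 not kept. The other aldo-keto reductases AKR7A2 and AKR7A3, the 2 kept of 4 measured, also stayed under 2-fold, with medians of 0.02, 0.59 and -0.65 in the same 3 comparisons. Steroid sulfation had 5 kept of 8 and none at 2-fold, with medians of -0.08, 0.15 and -0.19.

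Among other hydroxysteroid oxidoreductases, with 8 kept of 16, RDH10, a retinol dehydrogenase, and HSD17B11 were higher with siControl than in untransfected LTAD, by 1.75 and 1.11. On the deposited values both were under 2-fold there, at 0.86 and 0.16. No gene of that list reached 2-fold in the other 2 of the 3 comparisons, and its medians were 0.09, -0.30 and -0.14. Of 7 other UDP-glucuronosyltransferases measured, none was kept. UGDH makes the UDP-glucuronic acid that UGT2B enzymes use. It read 11.18 with siPSF, 11.34 with siControl, 10.01 in untransfected LTAD and 11.26 in LNCaP, lowest in untransfected LTAD as UGT2B10 was. In this supply list, with 8 kept of 9, UGDH differed by -1.25 for untransfected LTAD minus LNCaP and by 1.33 for siControl minus untransfected LTAD, or 0.54 there on the deposited values. PGM1, a phosphoglucomutase, differed by -1.12 for siControl minus untransfected LTAD. With each array centred on its median that was -0.75, under 2-fold, but as deposited -1.97. The list medians were -0.15, -0.04 and 0.31. Steroid hydroxylation and transport had 3 kept of 15, with medians of 0.12, -0.14 and 0.18, and the exporter gene ABCC4 differed by -1.79 for untransfected LTAD minus LNCaP.

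AKR1C genes are known as targets of NRF2, the regulator of antioxidant genes, and all 18 measured genes of that list were kept. In untransfected LTAD against LNCaP 5 of them were at least 2-fold lower and none higher, with a median of -0.66, where 3.43% of all kept genes were 2-fold lower and 2.2% higher. On the deposited values 3 were lower and the median was -0.45. All 11049 genes kept on that scale had a median of 0.20, with 255 of them 2-fold lower. GPX2, a glutathione peroxidase, differed by -2.81, SLC7A11, the cystine transporter, by -1.69 and TXNRD1, thioredoxin reductase, by -1.34. GPX2 was kept only through LNCaP, at 7.67, and read 6.36 with siPSF, 6.36 with siControl and 4.87 in untransfected LTAD. Nothing is read from its part in the list counts. For siControl minus untransfected LTAD 5 of the 18 were higher, with SLC7A11 at 2.05, GPX2 at 1.50 and ME1, malic enzyme, at 1.38. The GPX2 value there lies between 2 readings under the filter value. GCLC, which encodes the catalytic subunit of glutamate-cysteine ligase, was the 1 lower gene at -1.39, and the list median was 0.44. Of all kept genes 6.34% were 2-fold higher there and 4.36% lower. On the deposited values the list median was -0.38, with 1 gene 2-fold higher and 4 lower, and GPX2 at 0.18 and ME1 at 0.50 were under 2-fold. All 11049 genes kept on that scale had a median of -0.92, with 65 of them 2-fold higher and 4791 lower. AKR1C1, AKR1C2 and AKR1C3 were at least 2-fold lower for siControl minus untransfected LTAD. For untransfected LTAD minus LNCaP AKR1C1, on the probe set used, and AKR1C2 were lower, at -1.37 and -3.14. AKR1C3, kept only through untransfected LTAD, was higher there, at 3.31. A part of NRF2 in these differences was not tested. For siPSF minus siControl none of the 18 reached 2-fold and the median was -0.12.

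Peroxisomal beta-oxidation, the other pathway of HSD17B4, had 12 kept of 14. ACOX2, which oxidises branched-chain and bile acid side chains, was higher in untransfected LTAD than in LNCaP by 1.31 and higher with siControl than in untransfected LTAD by 1.12, or 0.17 on the deposited values. CROT, a carnitine acyltransferase, differed by -1.27 for siControl minus untransfected LTAD, and ACAA1, a thiolase, was just past 2-fold lower there. With each array centred on its median CROT was at -0.99 and ACAA1 at -0.70, under 2-fold, but as deposited at -2.21 and -1.91. The medians were -0.02, 0.18 and 0.01 in the 3 comparisons, and HSD17B4 itself differed by -0.12, 0.06 and -0.29.

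**Figure D4:**
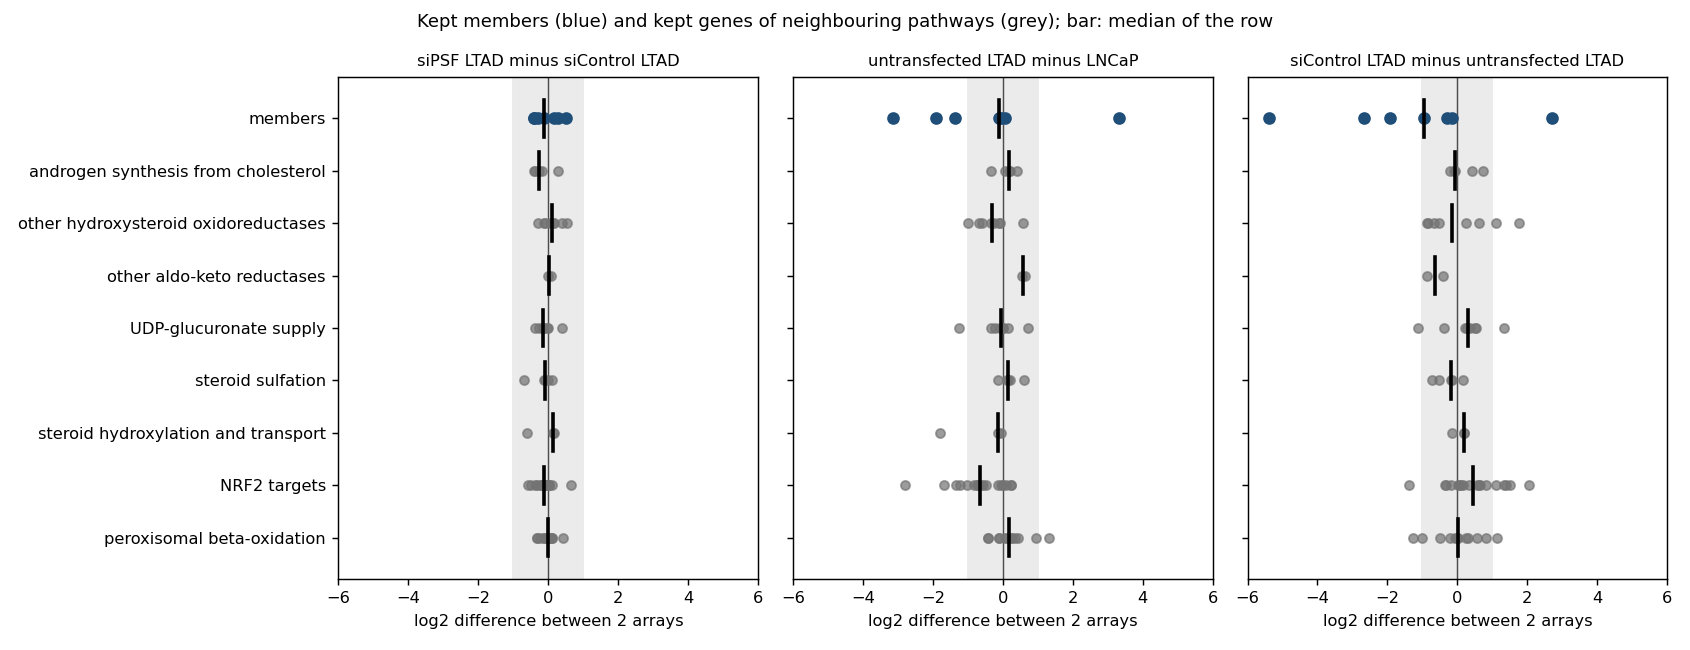
Log2 differences (x axis) of the 7 kept members (blue) and of the kept genes of 8 related lists (grey), with a bar at the median of each row. The members spread from -3.14 to 3.31 for untransfected LTAD minus LNCaP and from -5.39 to 2.71 for siControl minus untransfected LTAD, and from -0.41 to 0.50 for siPSF minus siControl.

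The genes most like each member were sought by the Euclidean distance between mean-centred levels over the 4 arrays, for the 4 kept members whose levels ranged over at least 2. AKR1C1 was nearest to RPS6KA6 at a distance of 0.16 and GALNT7 at 0.27. AKR1C2 was nearest to TM4SF1 and GASK1B, both at 0.66. For AKR1C3 the nearest were SNORA36C at 0.56 and REG4 at 0.73, and REG4 read 4.66 with siPSF, 4.77 with siControl, 10.49 in untransfected LTAD and 6.44 in LNCaP. HSD17B6 was nearest to PBK at 0.25 and ZNF676 at 0.28, with PBK at 9.50, 9.99, 7.41 and 9.10 on the same arrays. With 4 arrays and 10117 genes, such likeness describes these arrays only.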

How the data were processed

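The deposited values are log2 levels per probe set; the submitters' processing notes name RMA and Affymetrix Expression Console. Their versions, their settings and which arrays entered together are not given in the sources used here. GEO's platform annotation named the 33297 probe sets, with symbols brought up to date by gene ID through RefSeq, assembly GRCh38.p14 (19429 of 19460 single-symbol probe sets matched). Of the rest, 1754 had several symbols and named no gene, and 12083 were unnamed here. The 4 columns were quantile-normalized with numpy 2.4.6 and pandas 2.3.3. A gene with several probe sets took the one with the highest mean of the deposited values. Genes reaching the median of all gene values on at least 1 array were kept, and 2-fold (1 on the log2 scale) was the threshold. With 1 array per group no test was made, and precision is limited by having 4 arrays. The calculation was tested on simulated data.

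Members and the 14 gene lists (170 entries) were chosen with earlier results of these data known. Text names all members, SFPQ, up to 3 list genes at 2-fold per direction and comparison, and the 2 nearest profiles of members ranging over 2 or more; other list genes, UGT2B28 and marker genes were named after their values were seen. Alternatives were the deposited and median-centred scales, other probe set rules, other filters and the other LTAD array. Start windows come from RefSeq and were aligned with Biopython 1.88. Some genes are not reported here.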

Additional observations from a re-analysis of the deposited data

How the results depend on the processing

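No paired analysis was possible because each group held 1 array, and none could be left out in turn. With each array centred on its median, with the mean over probe sets, with shared probe sets included and under the other filters, the count of members at least 2-fold apart stayed within 1.5 times its value in all 3 comparisons. On the deposited values it was 6 for siControl minus untransfected LTAD, all lower, in place of 4. There 4856 of 11049 kept genes were at least 2-fold apart, in place of 1082 of 10117. Among all kept genes, siControl minus untransfected LTAD had 1.34% of its calls higher on the deposited values (median difference -0.92) and 81.3% with centring (0.35), in place of 59.2%. Untransfected LTAD minus LNCaP had 58.2% (median 0.20) and 29.2% (-0.11) higher, in place of 39.1%. The 75th percentile filter left 42, 305 and 602 kept genes at 2-fold in the 3 comparisons, in place of 82, 570 and 1082. HSD17B6 was dropped by that filter and by a median filter on the deposited values. AKR1C1 fell under 2-fold for untransfected LTAD minus LNCaP with the mean over its probe sets.

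The choice of LTAD array changed most. With untransfected LTAD as control the siPSF count was 5 in place of 0. Among members and named genes at least 2-fold apart for untransfected LTAD minus LNCaP, the sign turned with siControl LTAD against LNCaP for AKR1C3 (-2.08), HSD17B6 (0.81), UGT2B10 (0.42), LUM (-0.57), ME1 (0.17), SLC7A11 (0.36) and UGDH (0.0832). On the deposited values that comparison gave -0.07 for HSD17B6, -0.53 for UGT2B10, -0.50 for ME1, -0.24 for SLC7A11 and -0.50 for UGDH. Under 2-fold with untransfected LTAD, HSD17B4, HSD17B11, ACAA1 and PGM1 also turned, as did RDH10 (1.16), VIM (1.19), GCLC (-1.15) and CROT (-1.02), which were past 2-fold with siControl. UGT2B10 for untransfected LTAD minus LNCaP also turned, to 0.48, when shared probe sets were used, since the 5-symbol set then stood for it. The cause of these changes was not tested.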

Other observations

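Other genes of the AKR1C cluster were read under the filter value of 7.23 on all 4 arrays. AKR1C4, the liver form of the family, read 4.09 with siPSF, 3.70 with siControl, 3.60 in untransfected LTAD and 3.80 in LNCaP. The pseudogene AKR1C6P lay between 4.54 and 4.80. AKR1C8 read 4.34, 4.16, 5.01 and 5.56 on the same arrays, lowest on the transfected ones and highest in LNCaP, which was the order of AKR1C1 and AKR1C2 at a smaller range of 1.40. These genes were named after their values were seen.

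In the UGT2B cluster UGT2B4 read 5.80 with siPSF, 5.48 with siControl, 4.39 in untransfected LTAD and 4.55 in LNCaP, and UGT2B7 read between 3.32 and 3.75. Both were under the filter value throughout.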
